A study of Gallus gallus with 12 samples.

Results

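*timeless* cells were compared directly with *ddx11* cells, that is, mutants of 2 proteins that bind each other at the replication fork. All libraries came from DT40, a chicken B cell line used for gene disruption because targeted changes are made efficiently in it. The comparison used the 6 libraries whose labels give the genotypes TIMELESS KO (3) and DDX11 KO (3), out of 12 in the series. The other 6 libraries, 3 of *fancj* and 3 of wild type, entered only 1 alternative fit and are otherwise given as levels. The *timeless* mutants were made by CRISPR-Cas9, with both alleles disrupted in exon 1. For *ddx11* there were mutants made by CRISPR-Cas9 in exon 4 and an older one made by conventional gene targeting of other exons. The *fancj* line had been made earlier by gene targeting. All lines were grown in the same medium and received no drug. Each library was made from a separate population of its line. Which *timeless* or *ddx11* clone was sequenced is not given in the sources used here. Should all 3 populations descend from 1 clone, p-values measure only the spread within it. A change peculiar to a clone then cannot be told apart from a change that follows the disrupted gene.

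The guides listed for knockout of the 2 genes are shown because they are the designed change in the CRISPR-Cas9 mutants. Whether the *ddx11* cells sequenced were made with this guide or by gene targeting is not given in the sources used here. Each was written as an oligonucleotide of 25 bases, in which capitals mark the 20 bases that direct Cas9 and lower case marks the end used for cloning. They were not placed on a genome here.
*TIMELESS* guide (gene on chromosome 34 of GRCg7b, RefSeq): caccgCGACGGCATCGAAGAGGGTC
*DDX11* guide (gene on chromosome 1 of the same assembly): caccgTGCTGAATATGAGAGTGACG

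Timeless, with its partner Tipin, travels with the replisome as part of the fork protection complex, which links the helicase to the polymerases and helps to activate the replication checkpoint. DDX11 is an iron-sulphur DNA helicase that can unwind G-quadruplexes, four-stranded structures formed by guanine-rich DNA, and it also acts in sister chromatid cohesion. In DT40 cells, failure to replicate such structures smoothly can uncouple the recycling of histones from DNA synthesis and so change gene expression. The comparison asks which genes and functions separate the 2 partner mutants from each other.

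The libraries held 15553647 to 31959074 expected counts. Of the 10 B cell markers looked for, 9 were found by name and all 9 exceeded 1 TPM. Their summed level ran between 781 and 1235 TPM in *timeless*, against 1113 to 1321 TPM in *ddx11*, and 1 of the 9 was called, lower in *timeless*. Among markers of other blood cells and fibroblasts, the 5 macrophage genes found summed to at most 0.65 TPM in *timeless*, against 0.55 TPM in *ddx11*, and *MARCO* was at 0. The 4 erythroid genes summed to between 15.3 and 36.2 TPM in *timeless*, against 24.7 to 35.8 TPM in *ddx11*, with *HBA1* at 0. T cell genes summed to 54.0 to 131 TPM in *timeless*, against 63.1 to 105 TPM in *ddx11*, with *CD4* at 0, and 1 of the 5 T cell genes tested was called, lower in *timeless*. Thrombocyte genes reached 9.34 TPM in *timeless*, against 13.2 TPM in *ddx11*, and fibroblast genes 8.48 TPM in *timeless*, against 13.2 TPM in *ddx11*, with *POSTN* at 0.

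First came the 2 genes that had been disrupted. *TIMELESS* (ENSGALG00000034688) stood at 24.3, 21.4 and 22.6 TPM in *timeless*, against 45.7, 31.3 and 37.2 TPM in *ddx11*, so every *timeless* library lay below every *ddx11* library. It was at 30.5, 21.3 and 8.88 TPM in *fancj* and 40.75, 34.2 and 48.4 TPM in wild type, so low levels were not confined to *timeless*. Its log2 fold change (*timeless* over *ddx11*, here and throughout) was -0.57 (SE 0.15, edgeR adjusted p = 0.073), which missed the threshold. Fitting the replicate number as a block gave an edgeR adjusted p of 0.017, past it. Its counts were not all whole, so some reads were shared with another gene. *DDX11* (ENSGALG00000053509) stood at 16.2, 10.4 and 13.3 TPM in *timeless*, against 4.79, 7.03 and 4.53 TPM in *ddx11*, again without overlap, with a log2 fold change of 1.41 (SE 0.25, edgeR adjusted p = 0.018). This call was lost without *timeless* replicate 1 or 3 or *ddx11* replicate 1 or 3 (edgeR adjusted p up to 0.098). Each disrupted gene thus still gave RNA in its own line. The other partners did not separate the lines. *TIPIN*, the second subunit of the complex, stood at 39.9, 19.7 and 35.4 TPM in *timeless*, against 40.7, 24.9 and 32.0 TPM in *ddx11*. *CLSPN*, which encodes the checkpoint mediator Claspin, had a log2 fold change of -0.04 and an edgeR adjusted p of 0.94. For *WDHD1*, which encodes the replisome hub AND-1, these were -0.25 and 0.63, and for *BRIP1*, which encodes the helicase FANCJ, -0.22 and 0.69.

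Over all, 11736 genes averaged 1 TPM or more in one line or the other and were tested on their expected counts with edgeR's quasi-likelihood test. A gene is called here where its p, adjusted by Benjamini-Hochberg, fell below 0.05. The test called 601 genes (5.12%), of which 347 (2.96%) were higher and 254 (2.16%) were lower in *timeless*. TPM did not overlap between the lines for 598 of the 601, against 24.3% of all genes tested. The higher calls were the larger ones, with a median log2 fold change of 2.29, and 196 of them reached 2. Lower calls had a median of -1.31, and 77 reached -2. The median of all genes tested was 0.02. With the replicate block the test called 1629 genes (13.9%), 803 higher and 826 lower, and these held 599 of the 601 in the same direction. The 601 became 189 without *ddx11* replicate 3, 283 without *timeless* replicate 3, 296 without *ddx11* replicate 2, 369 without *ddx11* replicate 1 and 381 without *timeless* replicate 1. Without *timeless* replicate 2 the test called 676.

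Among named genes called without overlap and with a mean of 10 TPM or more in a line, the 12 of highest log2 fold change varied in function. Genes of lower level were left out, even with a larger change than some of these, as *PRDM1* (4.86). Some of the 12 were below 1 TPM in every *ddx11* library. *EFHD2*, which encodes a calcium-binding actin regulator, stood at 18.7, 24.1 and 28.2 TPM in *timeless*, against 0.26, 0.26 and 0.26 TPM in *ddx11*, a log2 fold change of 6.64 (SE 0.38, edgeR adjusted p = 0.00015). It was at 0.13, 1.33 and 0.76 TPM in *fancj* and 8.22, 13.8 and 15.4 TPM in wild type, so *timeless* was the line nearer to wild type. *STAT4*, the transcription factor that relays interleukin 12 signals, showed the opposite relation to wild type. It stood at 52.7, 32.5 and 24.7 TPM in *timeless*, against 1.45, 0.54 and 0.84 TPM in *ddx11*, a log2 fold change of 5.43 (SE 0.39, edgeR adjusted p = 0.0004), beside 0.48, 0.15 and 0.22 TPM in wild type. *NKX6-3*, a homeobox gene, stood at 85.3, 3.01 and 107 TPM in *timeless*, against 2.2, 0.83 and 1.15 TPM in *ddx11*, with 51.8, 23.0 and 20 TPM in *fancj* and 0.45, 0.12 and 0.47 TPM in wild type. The lines differed by 5.74 (SE 1.13, edgeR adjusted p = 0.025) on the log2 scale, and *timeless* replicate 2 lay far below the other *timeless* libraries. *BTBD17* had 9.63, 17.5 and 12.8 TPM in *timeless*, against 0.11, 0.76 and 0.38 TPM in *ddx11*, and *ACHE*, which encodes acetylcholinesterase, had 15.8, 26.6 and 14.4 TPM in *timeless*, against 0.4, 2.24 and 0.41 TPM in *ddx11*. *GPR142*, the neighbour of *BTBD17* on chromosome 18, encodes a receptor that senses tryptophan in mammals and stood at 45.4, 17.8 and 52.4 TPM in *timeless*, against 4.15, 3.24 and 4.23 TPM in *ddx11*. All 3 kept the call with each library left out in turn.

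*FKBP11*, which encodes a prolyl isomerase of the endoplasmic reticulum that marks secretory cells, stood at 41.3, 30.3 and 40.2 TPM in *timeless*, against 1.39, 4.81 and 2.22 TPM in *ddx11*, a log2 fold change of 3.77 (SE 0.50, edgeR adjusted p = 0.0048). *MDK*, which encodes the heparin-binding growth factor midkine, stood at 34.9, 43.1 and 41.7 TPM in *timeless*, against 3.6, 5.14 and 4.3 TPM in *ddx11*, a log2 fold change of 3.32 (SE 0.29, edgeR adjusted p = 0.00083). In the other lines *MDK* was at 34.6, 29.6 and 44.5 TPM in *fancj* and 43.6, 35.8 and 42.5 TPM in wild type, so it was low in *ddx11* cells alone of the 4 lines. *CO6* stood at 12.6, 21.2 and 18.5 TPM in *timeless*, against 3.47, 0.87 and 0.46 TPM in *ddx11*. *IFITM3*, which encodes an antiviral membrane protein, stood at 18.3, 20.5 and 6.3 TPM in *timeless*, against 1.68, 1.31 and 1.71 TPM in *ddx11*. *DBNDD2* completed the 12, at 4.0, 31.1 and 12.7 TPM in *timeless*, against 1.91, 2.89 and 2.06 TPM in *ddx11*, with *timeless* replicate 1 near the *ddx11* libraries. By the same rule, the 2 higher genes of largest change that the files list without a name were *ENSGALG00000051234* and *ENSGALG00000053734*. *ENSGALG00000051234* stood at 705, 229.7 and 449 TPM in *timeless* and had no count in any *ddx11* library. Against a floor of 3 counts per library this is at least 553-fold higher. *ENSGALG00000053734* stood at 10.8, 20.5 and 9.04 TPM in *timeless* and was also without a count in *ddx11*, at least 48.7-fold higher. Among the 12 named genes, *NKX6-3*, *IL1RL1* and *DBNDD2* lost the call in 4 or 5 of the 6 fits that left out a library, each of them without *timeless* replicate 3 or *ddx11* replicate 1 or 3 (edgeR adjusted p up to 0.17), and the other 9 kept it in all 6.

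**Figure D1:**
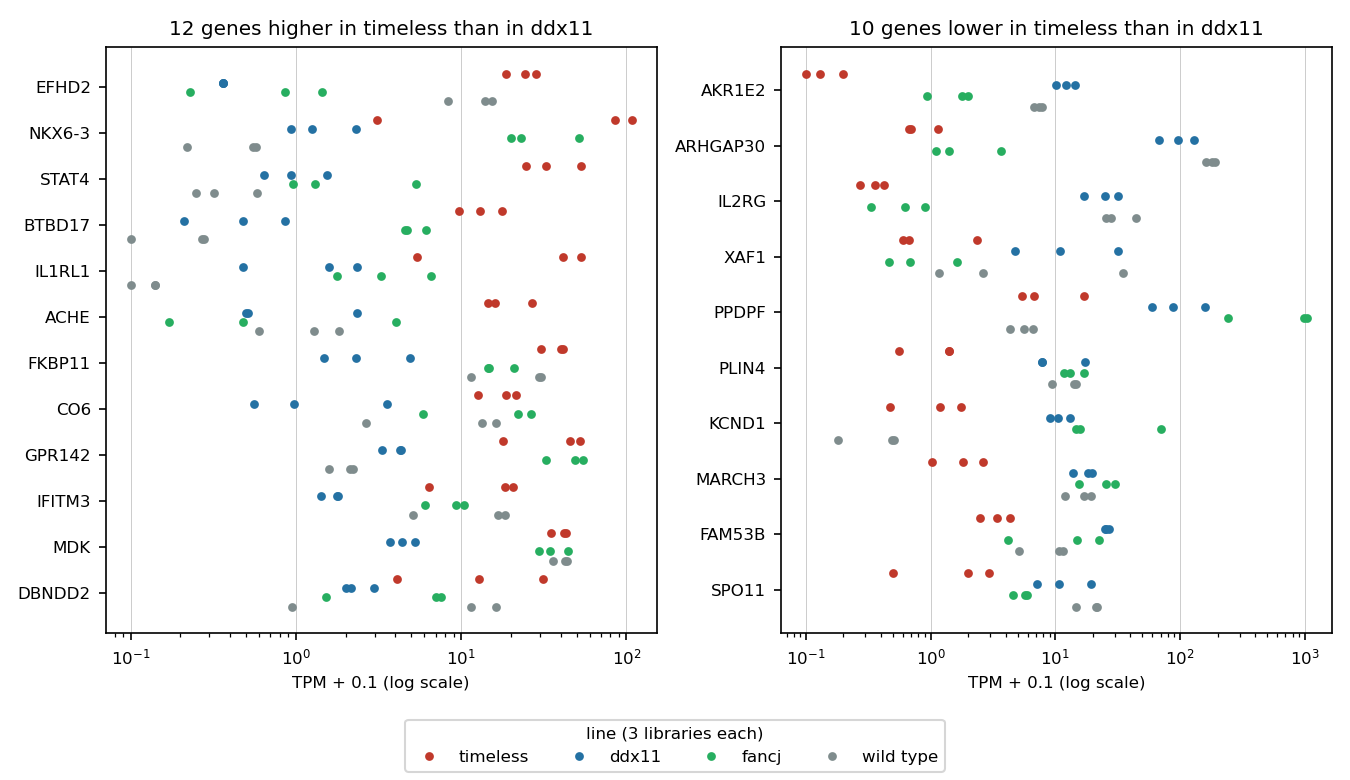
Level of the 12 genes of highest and 10 of the 12 of lowest log2 fold change, as TPM + 0.1 on a log scale. They were taken among named genes called without overlap and with a mean of 10 TPM or more in a line. Each point is a library and each colour a line. In *ddx11*, *EFHD2* stood at 0.26 TPM in all 3 libraries, and in *timeless*, *IL2RG* stayed at or below 0.32 TPM.

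Some of the 12 genes of lowest log2 fold change by the same rule were ones that wild-type cells also expressed. *ARHGAP30*, which encodes a GTPase-activating protein, stood at 1.05, 0.6 and 0.57 TPM in *timeless*, against 129, 67.6 and 96.6 TPM in *ddx11*, a log2 fold change of -6.89 (SE 0.32, edgeR adjusted p = 7.9e-05). It was at 1.01, 3.56 and 1.31 TPM in *fancj* and 179, 160.5 and 192 TPM in wild type. *IL2RG* encodes the gamma chain shared by the receptors for interleukin 2 and related cytokines. It stood at 0.32, 0.17 and 0.26 TPM in *timeless*, against 31.7, 16.8 and 25.1 TPM in *ddx11*, a log2 fold change of -6.41 (SE 0.35, edgeR adjusted p = 0.00015). It was at 0.23, 0.8 and 0.52 TPM in *fancj* and 44.3, 25.4 and 27.9 TPM in wild type. The 2 low lines for both genes were therefore *timeless* and *fancj*. *AKR1E2*, an aldo-keto reductase gene, held 4 counts in all over the 3 *timeless* libraries, against 14.3, 10.1 and 12 TPM in *ddx11*. The ratio of *ddx11* over *timeless* was 311, with a 95% counting interval of 121 to 1141.

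*PPDPF* stood at 6.69, 16.8 and 5.34 TPM in *timeless*, against 59.2, 157 and 88.1 TPM in *ddx11*, with 241, 979 and 1041 TPM in *fancj* and 4.27, 5.5 and 6.54 TPM in wild type, so it was *ddx11* and *fancj* that departed from wild type. *KCND1*, which encodes a voltage-gated potassium channel, followed the same order, at 0.37, 1.65 and 1.09 TPM in *timeless*, against 9.0, 12.9 and 10.4 TPM in *ddx11* and 0.08, 0.39 and 0.41 TPM in wild type. *MARCH3*, which encodes a membrane ubiquitin ligase, and *PLIN4*, which encodes a lipid droplet protein, were low in *timeless* alone. *MARCH3* stood at 0.92, 2.55 and 1.71 TPM in *timeless*, against 13.9, 19.7 and 18.1 TPM in *ddx11*, and *PLIN4* at 0.46, 1.3 and 1.3 TPM in *timeless*, against 17.3, 7.78 and 7.73 TPM in *ddx11*. *FAM53B* stood at 4.26, 2.37 and 3.3 TPM in *timeless*, against 25.2, 26.7 and 24.9 TPM in *ddx11*, a log2 fold change of -2.82 (SE 0.28, edgeR adjusted p = 0.0015). *SPO11*, the meiotic break-forming enzyme gene that DT40 also transcribes, stood at 2.83, 0.4 and 1.88 TPM in *timeless*, against 19.1, 7.07 and 10.6 TPM in *ddx11*. *XAF1*, which encodes an antagonist of the apoptosis inhibitor XIAP, spread widely between libraries of one line. It stood at 0.5, 2.25 and 0.57 TPM in *timeless*, against 4.68, 31.5 and 10.9 TPM in *ddx11*. In wild type it was at 34.9 TPM in replicate 1 and no higher than 2.51 TPM in the other replicates. *XAF1* and *SPO11* each lost the call in 4 of the 6 fits that left out a library, both of them without *timeless* replicate 1, *timeless* replicate 3 or *ddx11* replicate 3 (edgeR adjusted p up to 0.13), and the other 8 lower genes shown kept it. Without a name in the files were *ENSGALG00000053392* and *ENSGALG00000050278*. *ENSGALG00000053392* was at 137, 173 and 177 TPM in *ddx11* and its counts rounded to 0 in every *timeless* library, at least 176-fold lower in *timeless*. *ENSGALG00000050278* was at 128, 92.3 and 92.6 TPM in *ddx11* and without a count in *timeless*, at least 114-fold lower.

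B cell transcription factors separated the lines in both directions. Of 28 tested, 3 were higher and 2 lower in *timeless*, 17.9% called against 5.12% of all genes tested. All lists given here were chosen with earlier results of these data known, so a share above that of all genes is description only. The median log2 fold change of the list was -0.00. *PRDM1*, which encodes BLIMP1, the driver of plasma cell differentiation, stood at 6.25, 3.76 and 3.89 TPM in *timeless*, against 0.03, 0.22 and 0.26 TPM in *ddx11*, a log2 fold change of 4.86 (SE 0.60, edgeR adjusted p = 0.0038). *IRF4*, another plasma cell regulator, stood at 90.4, 92.7 and 86.02 TPM in *timeless*, against 53.1, 24.8 and 31.1 TPM in *ddx11*, a log2 fold change of 1.47 (SE 0.24, edgeR adjusted p = 0.011). *BCL11A*, a factor needed for early B cells, was higher too, at 57.6, 35.9 and 33.0 TPM in *timeless*, against 23.1, 15.1 and 17.7 TPM in *ddx11*. *BACH2*, a repressor of *PRDM1* in mammals, was among the lower genes, at 1.69, 3.2 and 1.45 TPM in *timeless*, against 6.04, 11.1 and 5.93 TPM in *ddx11*. The wild-type libraries themselves spread over this range, with *PRDM1* at 1.27, 9.4 and 8.94 TPM in wild type and *IRF4* at 60.2, 122 and 131 TPM in wild type. With the replicate block, which called 13.9% of all genes tested, 7 were higher and 4 lower. Among those that passed with the block only, picked out after their values were seen, *IRF8* had a log2 fold change of 1.46 (edgeR adjusted p = 0.051, 0.0031 with the block) and *PAX5*, the B cell identity factor, -0.90 (edgeR adjusted p = 0.15, 0.015 with the block). The list gave 2 to 8 with 1 library left out, fewest without *ddx11* replicate 3. *PRDM1* kept the call in all 6 such fits, *IRF4* and *BCL11A* in all but that without *ddx11* replicate 3, and *BACH2* only in that without *timeless* replicate 2 (edgeR adjusted p up to 0.14).

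The 2 called genes of B cell receptor signalling were lower in *timeless*, a share near that of all genes tested. Of 26 genes tested, 0 were higher and 2 lower, 7.69% called against 5.12% of all genes tested. The median log2 fold change was -0.28. By edgeR, 8 had an unadjusted p under 0.05, and DESeq2 called 5, none of them higher. Over all 11736 genes tested these counts were 2200 and 1182. *RASGRP3*, which activates Ras below the receptor, stood at 18.7, 21.2 and 9.99 TPM in *timeless*, against 41.0, 52.6 and 44.6 TPM in *ddx11*, and *NFATC1*, a calcium-regulated transcription factor gene on chromosome 2, where the median of all genes was -0.54, at 0.98, 1.31 and 0.68 TPM in *timeless*, against 3.14, 3.15 and 2.93 TPM in *ddx11*. With the block, where 13.9% of all genes tested were called, 8 of the 26 were lower and still none higher. The list gave 0 to 6 with 1 library left out, fewest without *timeless* replicate 1, *ddx11* replicate 2 or *ddx11* replicate 3. Of those fits, *RASGRP3* lost the call in 3 and *NFATC1* in 5. *BLK*, a Src family kinase gene of B cells and the only one of 7 genes called in its list (2 with the block), stood at 6.5, 6.46 and 5.59 TPM in *timeless*, against 24.9, 29.9 and 29.8 TPM in *ddx11*, a log2 fold change of -2.07 (SE 0.20, edgeR adjusted p = 0.0015). It kept the call with each library left out.

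Of 14 immunoglobulin and B cell surface genes, 1 was higher and 2 were lower, 21.4% called against 5.12% of all genes tested. The list median was -0.51. *CD80*, a ligand for T cell costimulation, was at 0.07, 0.02 and 0 TPM in *timeless*, against 6.23, 4.04 and 5.01 TPM in *ddx11*. *CD5*, a brake on receptor signalling, stood at 27.9, 17.6 and 22.5 TPM in *timeless*, against 58.4, 83.3 and 73.2 TPM in *ddx11*, a log2 fold change of -1.55 (SE 0.23, edgeR adjusted p = 0.0078), and it was at 11.9, 3.94 and 6.26 TPM in wild type. *TNFRSF13B*, which encodes TACI, a receptor for B cell survival factors, was the higher gene, at 108, 63.2 and 97.6 TPM in *timeless*, against 50.5, 26.8 and 38.9 TPM in *ddx11*. The block raised the calls to 7, and it called 13.9% of all genes tested. There were 2 to 4 with 1 library left out, fewest without *timeless* replicate 1, *timeless* replicate 3, *ddx11* replicate 2 or *ddx11* replicate 3. *TNFRSF13B* was called only without *timeless* replicate 2 or *ddx11* replicate 1 (edgeR adjusted p up to 0.086), and *CD80* and *CD5* in all 6 fits.

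Cytokine receptor and JAK-STAT genes were called in both directions. Of 26 tested, 5 were higher (*STAT4*, *IL6R*, *IL1RL1*, *IL10RA* and *IL18R1*) and 1 (*IL2RG*) was lower. In all, 23.1% of the list was called, against 5.12% of all genes tested. The median log2 fold change of the list was 0.46 and 21 of its genes lay above 0. *IL6R*, the interleukin 6 receptor gene, stood at 214, 273 and 166 TPM in *timeless*, against 46.2, 27.1 and 47.9 TPM in *ddx11*, a log2 fold change of 2.57 (SE 0.27, edgeR adjusted p = 0.0019). *IL1RL1*, the receptor gene for interleukin 33, stood at 53.1, 5.31 and 41.1 TPM in *timeless*, against 2.25, 0.38 and 1.48 TPM in *ddx11*, and its neighbour on chromosome 1, *IL18R1*, at 2.97, 0.18 and 3.09 TPM in *timeless*, against 0.16, 0.04 and 0.18 TPM in *ddx11*. *timeless* replicate 2 was the low library for both, and for *IL18R1* it reached the *ddx11* range. *IL10RA* stood at 10.4, 7.6 and 6.78 TPM in *timeless*, against 5.79, 3.56 and 3.78 TPM in *ddx11*. The list gave 11 calls with the block, where 13.9% of all genes tested were called. It gave 3 to 7 with 1 library left out, fewest without *timeless* replicate 3, *ddx11* replicate 1 or *ddx11* replicate 3. *STAT4*, *IL6R* and *IL2RG* were called in each of those 6 fits.

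Antigen presentation was the list with the highest median, 0.97 over 11 genes, of which 3 were higher and 0 lower. In all, 27.3% of the list was called, against 5.12% of all genes tested. Of the 11, 7 had an unadjusted edgeR p under 0.05, and DESeq2 called 5, all higher. Over all 11736 genes tested these counts were 2200 and 1182. *BLB2*, a class II beta chain gene of the chicken MHC, stood at 76.8, 108 and 56.6 TPM in *timeless*, against 21.8, 18.7 and 28.6 TPM in *ddx11*, a log2 fold change of 1.93 (SE 0.28, edgeR adjusted p = 0.0074). *BF1*, a class I gene of the same locus on chromosome 16, stood at 1.26, 1.9 and 1.04 TPM in *timeless*, against 0.17, 0.43 and 0.14 TPM in *ddx11*. Both had counts that were not whole and have near-identical copies, so their levels are uncertain. *CTSS*, which encodes the protease that trims class II invariant chain, stood at 143, 122.9 and 87.7 TPM in *timeless*, against 76.4, 61.0 and 69.3 TPM in *ddx11*. With the block 6 were higher, where 13.9% of all genes tested were called. There were 1 to 2 with 1 library left out, fewest without *timeless* replicate 1, *ddx11* replicate 1, *ddx11* replicate 2 or *ddx11* replicate 3. *BLB2* was called in all 6, *CTSS* only without *timeless* replicate 2 or 3, and *BF1* in 0 of those fits (edgeR adjusted p up to 0.2).

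Genes of migration and adhesion went both ways. *CXCR4*, the receptor for the chemokine CXCL12, stood at 43.6, 34.7 and 34.6 TPM in *timeless*, against 131, 80.5 and 98.5 TPM in *ddx11*, a log2 fold change of -1.31 (SE 0.18, edgeR adjusted p = 0.0054). *CCR10*, a homing receptor of antibody-secreting cells, stood at 3.42, 5.02 and 5.32 TPM in *timeless*, against 0.64, 0.42 and 0.26 TPM in *ddx11*, a log2 fold change of 3.51 (SE 0.45, edgeR adjusted p = 0.0042). *GPR183*, an oxysterol receptor that positions B cells, stood at 13.04, 30.0 and 11.4 TPM in *timeless*, against 0.74, 4.35 and 2.76 TPM in *ddx11*. These were the 3 called of 13 chemokine and migration genes, 23.1% against 5.12% of all genes tested. Of 17 integrin and adhesion genes, *ALCAM* and *VCL* were higher and *ITGB7* was lower (17.6% called). *ALCAM* stood at 1.27, 1.45 and 1.9 TPM in *timeless*, against 0.06, 0.23 and 0.06 TPM in *ddx11* and *ITGB7* at 0.47, 0.54 and 0.34 TPM in *timeless*, against 1.32, 4.05 and 2.96 TPM in *ddx11*. In wild type, replicate 1 held 0.34 TPM of *ALCAM* and 10.8 TPM of *ITGB7*, and the other replicates at least 4.56 TPM of *ALCAM* and at most 1.44 TPM of *ITGB7*. *VCL*, which encodes the focal adhesion protein vinculin, had a log2 fold change of 2.25. The migration list gave 5 calls with the block and 2 to 4 with 1 library left out, fewest without *timeless* replicate 1, *timeless* replicate 3 or *ddx11* replicate 3. The adhesion list gave 4 calls with the block and 0 to 4 with 1 library left out, fewest without *ddx11* replicate 3. Of all genes tested, 13.9% were called with the block.

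The remaining immune lists gave 2 and 1 calls, 8.70% and 9.09% of their genes, against 5.12% of all genes tested. In the TNF receptor and NF-kappaB list, *TRAF4* was higher with a log2 fold change of 1.05 and *TNFSF10*, the death ligand TRAIL, lower with -1.93, of 23 tested. That list gave 4 calls with the block, which called 13.9% of all genes tested. It gave 0 to 2 with 1 library left out, fewest without *timeless* replicate 1, *timeless* replicate 3, *ddx11* replicate 2 or *ddx11* replicate 3. In the interferon list of 11 genes, *TLR7*, a sensor of single-stranded RNA, was the only call. It stood at 1.82, 1.71 and 1.78 TPM in *timeless*, against 7.96, 9.21 and 8.97 TPM in *ddx11*, a log2 fold change of -2.14 (SE 0.23, edgeR adjusted p = 0.002), and kept the call with each library left out. In wild type *TLR7* was at 17.5, 3.23 and 4.45 TPM, so replicates of that line differed as well.

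Channel and surface receptor genes were also called, and the receptor list shares its call of *GPR183* with the migration list. Of 47 ion channel genes, 6 were higher and 3 lower, and of 24 orphan and adhesion G protein-coupled receptors 4 were higher and 0 lower. These calls were 19.1% and 16.7% of the lists, against 5.12% of all genes tested. The receptor list held 7 unadjusted edgeR p under 0.05 and 5 DESeq2 calls, 4 of them higher. Over all 11736 genes tested these counts were 2200 and 1182. *KCNT2*, a sodium-activated potassium channel gene, stood at 4.63, 3.23 and 4.43 TPM in *timeless*, against 1.08, 0.75 and 0.97 TPM in *ddx11*, below its 14.2, 12.9 and 13.1 TPM in wild type. *KCNA3*, the main voltage-gated potassium channel gene of lymphocytes, stood at 0.86, 1.98 and 1.18 TPM in *timeless*, against 0.08, 0.14 and 0.22 TPM in *ddx11*. *KCNK1*, a leak channel gene, stood at 1.07, 1.64 and 0.78 TPM in *timeless* and had 2 counts in all in *ddx11*, a ratio of 60.3 with a 95% counting interval of 16.7 to 498. *CACNA2D1*, a calcium channel subunit gene, and *KCND1* were lower, *CACNA2D1* at 0.11, 0.08 and 0.09 TPM in *timeless*, against 0.99, 1.43 and 0.65 TPM in *ddx11*. The glutamate receptor gene *GRIA3* was higher, with a log2 fold change of 1.67. *GPR27* stood at 55.1, 58.2 and 48.0 TPM in *timeless*, against 6.77, 16.2 and 11.7 TPM in *ddx11*. Channels gave 13 calls with the block (8 higher, 5 lower) and receptors 5 (4 higher, 1 lower), where 13.9% of all genes tested were called. Channels gave 3 to 8 with 1 library left out, fewest without *ddx11* replicate 2. Receptors gave 2 to 5 with 1 library left out, fewest without *timeless* replicate 3 or *ddx11* replicate 3.

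The 168 solute carrier genes gave 6 higher and 5 lower, 6.55% of them, against 5.12% of all genes. *SLC4A2*, an anion exchanger gene on chromosome 2, stood at 8.26, 10.8 and 7.53 TPM in *timeless*, against 25.9, 28.4 and 25.8 TPM in *ddx11*, a log2 fold change of -1.46 (SE 0.19, edgeR adjusted p = 0.0048). *SLC37A1*, *SLC16A13*, *SLC45A3* and *SLC35D1* were higher, with log2 fold changes of 1.77, 1.95, 1.15 and 0.97. *SLC25A21*, a mitochondrial carrier gene, was at 1.62, 1.91 and 1.88 TPM in *timeless* and had 2 counts in all in *ddx11*, a ratio of 36.6 with a 95% counting interval of 10.1 to 302. The list gave 28 calls with the block, which called 13.9% of all genes tested. It gave 2 to 10 with 1 library left out, fewest without *ddx11* replicate 3. Outside it, *ARHGAP27*, which encodes another GTPase-activating protein, stood at 6.91, 9.4 and 6.6 TPM in *timeless*, against 1.2, 1.22 and 1.28 TPM in *ddx11*, a log2 fold change of 2.77 (SE 0.26, edgeR adjusted p = 0.0014), and kept the call with each library left out.

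Among 36 genes of developmental signalling, 4 were higher and 0 lower, 11.1% called against 5.12% of all genes tested. An unadjusted edgeR p under 0.05 was found for 11, and DESeq2 called 9, of which 6 were higher. Over all 11736 genes tested these counts were 2200 and 1182. Both a Notch ligand and a Notch modifier were among the higher genes. *JAG1*, the ligand gene, stood at 1.35, 1.63 and 0.85 TPM in *timeless*, against 0.06, 0.1 and 0.08 TPM in *ddx11*, and *LFNG*, which encodes a glycosyltransferase that modifies Notch, at 46.6, 59.1 and 38.3 TPM in *timeless*, against 29.3, 31.2 and 29.9 TPM in *ddx11*. *TGFB1*, the gene of the cytokine TGF-beta 1, was the most abundant, at 506, 461 and 511 TPM in *timeless*, against 322, 297 and 316 TPM in *ddx11*. *FZD9*, a Wnt receptor gene, had a log2 fold change of 1.24. *JAG1* kept the call with each library left out, *TGFB1* and *FZD9* were called only without *timeless* replicate 2, and *LFNG* in 0 of these fits (edgeR adjusted p up to 0.17). The list gave 10 calls with the block, 7 higher and 3 lower, where 13.9% of all genes tested were called.

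Growth factor receptors and ligands gave *MDK* alone of 17, and cadherins, laminins and collagens gave *CDH8* alone of 17, with a log2 fold change of 3.26. These calls were 5.88% of each list, against 5.12% of all genes tested. With the block these lists gave 2 and 6 calls, where 13.9% of all genes tested were called. In the list of 24 guidance and neural adhesion genes, *EFNB2*, a ligand of Eph receptors, and *CNTNAP1* were higher, with 2.39 and 1.80. *DSCAM*, an adhesion molecule gene of neurons, was lower, at 11.7, 8.77 and 7.74 TPM in *timeless*, against 21.7, 21.2 and 21.8 TPM in *ddx11*, and it was at 0.55, 0.88 and 0.28 TPM in *fancj* and 46.5, 28.5 and 24.9 TPM in wild type. That list was called at 12.5%. It gave 4 calls with the block and 0 to 4 with 1 library left out, fewest without *ddx11* replicate 3.

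**Figure D2:**
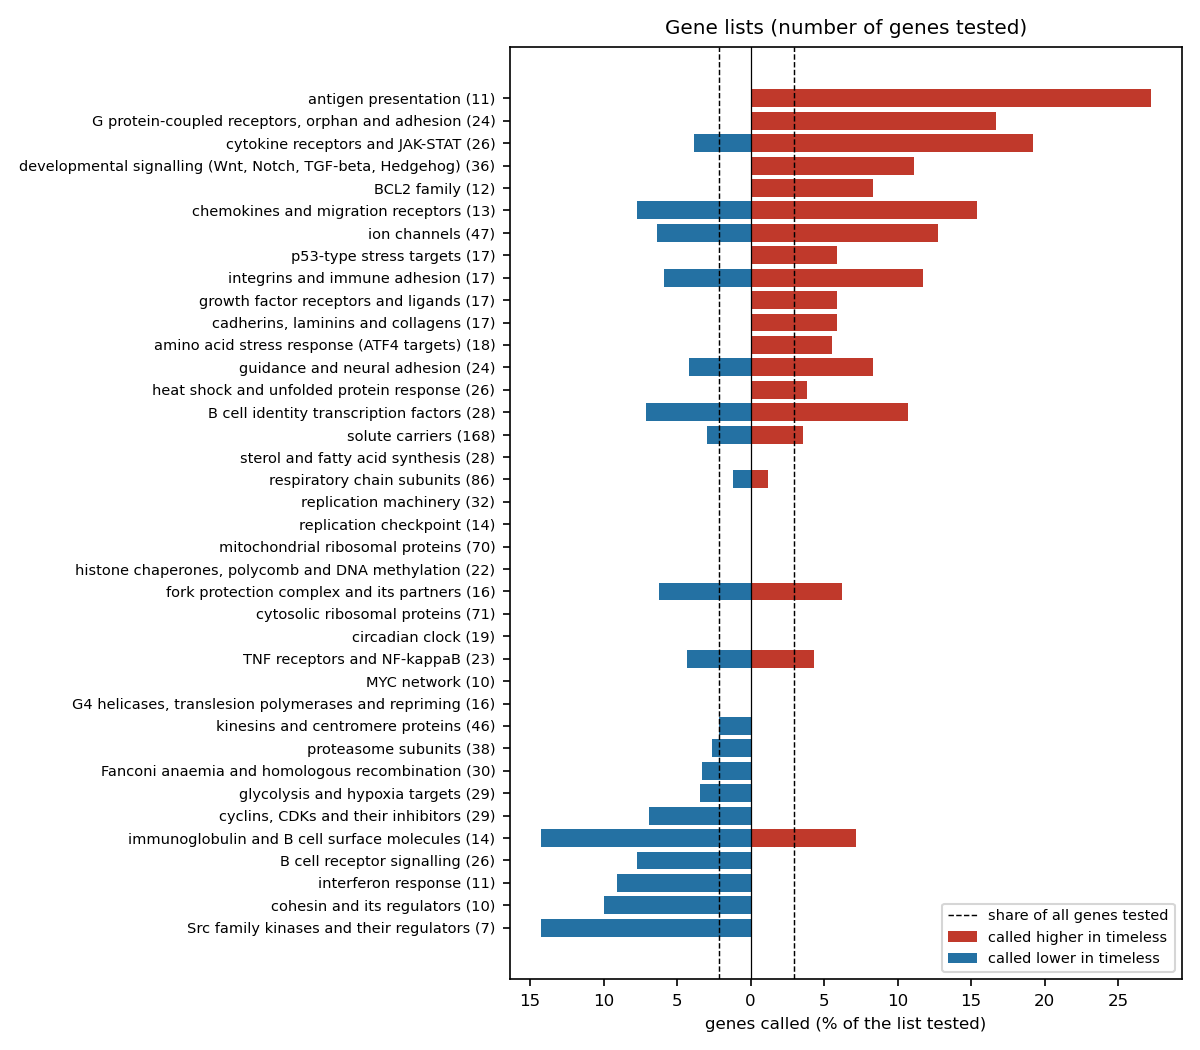
Share of the genes tested in each of 38 lists that was called higher (right) or lower (left) in *timeless* than in *ddx11*; dashed lines mark the shares of all genes tested, 2.96% and 2.16%. Of the 38 lists, 9 held no called gene, and the bars of short lists rest on 1 to 3 genes.

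Chromosome 2 set the lines apart as a whole. Of its 693 genes tested, 98 were lower in *timeless* and 8 higher, and the median log2 fold change was -0.54, a ratio of 0.689. Over the 7736 genes matched to other chromosomes, 83 were lower and 202 higher, with a median of 0.03. On each of the other 28 chromosomes with at least 50 genes tested, the median lay between -0.13 and 0.23 and at most 4.35% of genes were lower, against 14.1% on chromosome 2. The shift ran along the entire gene order. In 8 successive blocks of 86 or 87 neighbours the median ran between -0.48 and -0.63, and 79.3% to 95.4% of genes lay below 0.

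Relative to the wild-type mean, the median of chromosome 2 genes less that of all other mapped genes was -0.51, -0.52 and -0.53 on the log2 scale in the *timeless* libraries. It was 0.01, -0.01 and -0.03 in *ddx11*, 0.05, 0.07 and 0.11 in *fancj* and -0.02, 0.00 and 0.02 in wild type, whose own mean is the base. The 3 *timeless* libraries thus stood below the 9 others, which lay close together. DNA copy number was not measured, and its part in this shift was not tested. The median stayed between -0.50 and -0.57 in every alternative, those without 1 library included. The number of lower genes on the chromosome moved more, from 325 with the block to 38 without *timeless* replicate 1, 28 without *timeless* replicate 3, 36, 33 and 14 without *ddx11* replicates 1, 2 and 3, and 105 without *timeless* replicate 2.

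The 6 most abundant genes called on chromosome 2 had log2 fold changes of -0.64 to -0.99, each below the chromosome's median of -0.54. They were picked among called genes, so they do not stand for the typical shift. Other lower calls were far larger, such as *GEM* at -8.41 and *HOXA4* at -7.96, named here after their values were seen. *STMN2*, which encodes a tubulin-binding protein, stood at 379, 276 and 255 TPM in *timeless*, against 557, 595 and 576 TPM in *ddx11*, a log2 fold change of -0.81 (SE 0.18, edgeR adjusted p = 0.039). *EBAG9* stood at 129, 103 and 173 TPM in *timeless*, against 279, 311 and 269 TPM in *ddx11*, *IMPA2*, an inositol monophosphatase gene, at 141, 145 and 116 TPM in *timeless*, against 242, 276 and 211 TPM in *ddx11*, and *MAF1*, which encodes a repressor of RNA polymerase III, at 140.1, 120.0 and 114 TPM in *timeless*, against 233, 228 and 210.2 TPM in *ddx11*. *RAD21*, which encodes the cohesin subunit that closes the ring, stood at 121, 135 and 87.7 TPM in *timeless*, against 239, 287 and 218 TPM in *ddx11*, a log2 fold change of -0.99 (SE 0.21, edgeR adjusted p = 0.035). *NDUFV2*, a complex I subunit gene, stood at 140.1, 122 and 125 TPM in *timeless*, against 221, 214 and 224 TPM in *ddx11*. Each of these 6 lost the call without *timeless* replicate 1, *ddx11* replicate 2 or *ddx11* replicate 3, with edgeR adjusted p up to 0.22 for *NDUFV2*. The 8 higher genes, named here after their values were seen, were *IRF4*, *BCL2*, *ANGPT1*, *CA3B*, *LY6E*, *OXR1*, *LRRC6* and *RIPK2*.

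**Figure D3:**
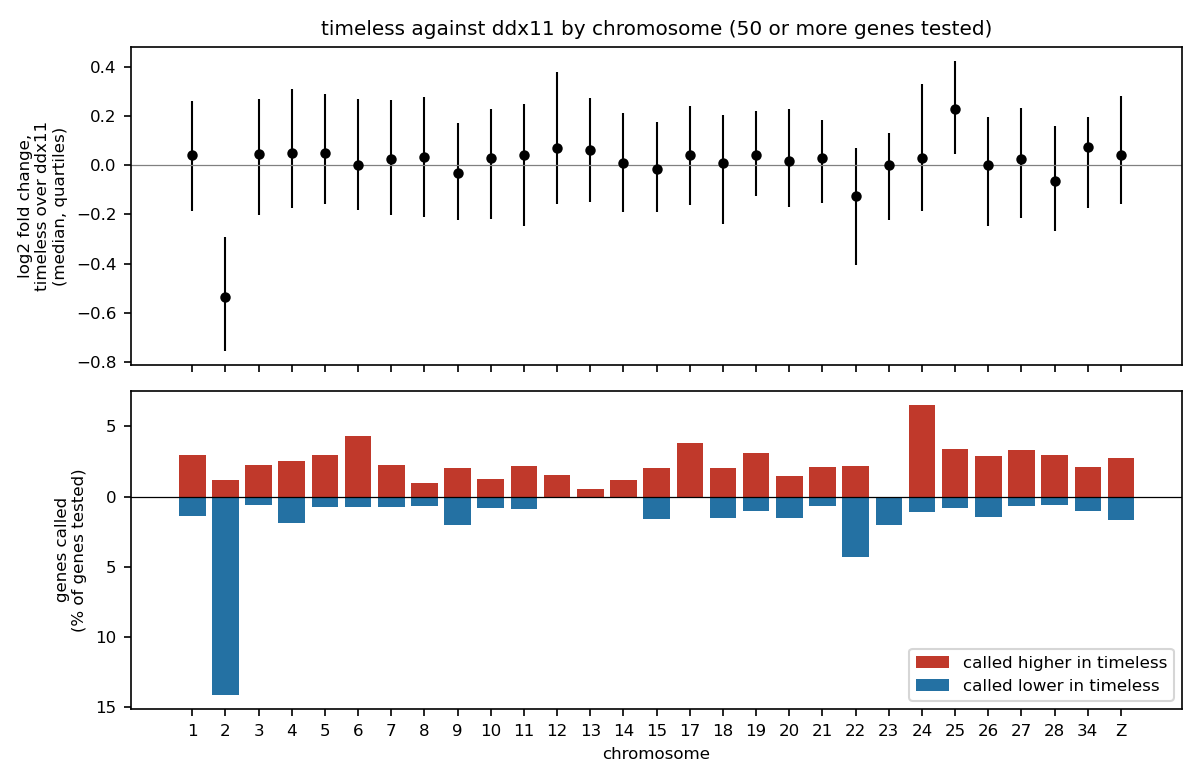
Upper panel, median and quartiles of the log2 fold change (*timeless* over *ddx11*) of the genes tested on each chromosome with at least 50; lower panel, share of those genes called higher (up) or lower (down) in *timeless*. Chromosome 2, at a median of -0.54 and 14.1% lower, stands apart from the other 28.

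**Figure D4:**
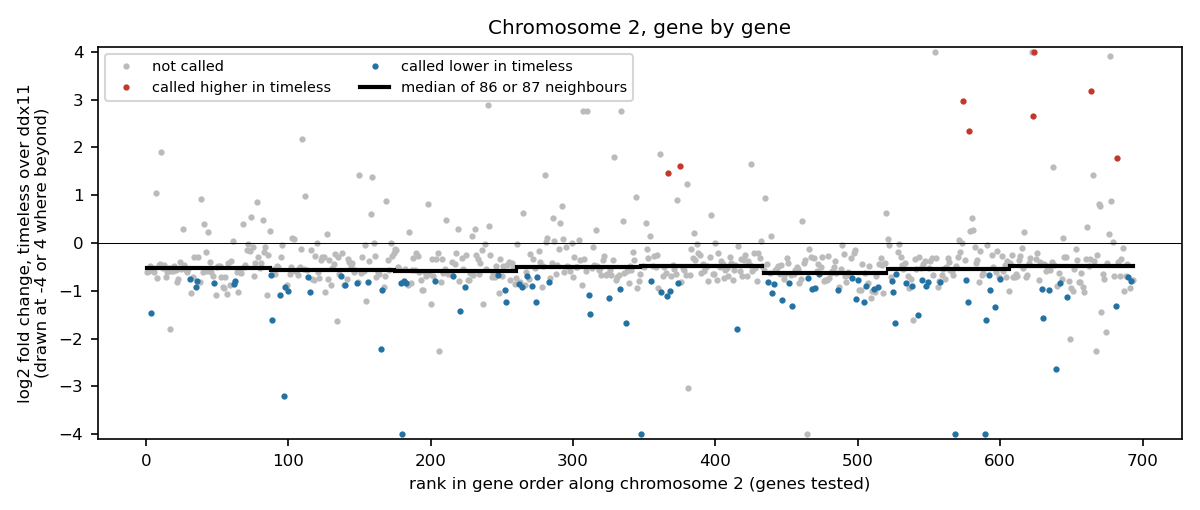
Log2 fold change (*timeless* over *ddx11*) of each of the 693 genes tested on chromosome 2, by rank in gene order; black bars are medians of 8 successive blocks, between -0.48 and -0.63. The 98 genes called lower are spread along the order.

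No call fell in 3 lists of replication, repair and checkpoint genes, where 5.12% of all genes tested were called. Lists this short would hold few calls at that share, so having none does not set these genes apart. None of 32 genes of the replication machinery was called by edgeR, 4 had an unadjusted p under 0.05, and DESeq2 called 2. For 16 G4 helicases, translesion polymerases and repriming factors these were 0, 1 and 0, and for 14 checkpoint genes 0, 3 and 0. Over all 11736 genes tested they were 601, 2200 and 1182. With the block, where 13.9% of all genes tested were called, 4, 1 and 3 genes of these 3 lists were lower and none higher. *MCM4*, a gene on chromosome 2 for a subunit of the replicative helicase, was the lowest of them, with a log2 fold change of -0.83 (edgeR adjusted p = 0.055, 0.0049 with the block).

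In the list of 16 members and partners of the fork protection complex, *ESCO1*, a cohesin acetyltransferase gene, was lower beside the higher *DDX11*. It stood at 13.3, 7.15 and 7.73 TPM in *timeless*, against 21.6, 18.8 and 19.9 TPM in *ddx11*, a log2 fold change of -0.98 (SE 0.23, edgeR adjusted p = 0.046). Of 30 genes of the Fanconi anaemia pathway and homologous recombination, *RAD54B*, a recombination translocase gene, was the only call, at 15.9, 6.02 and 6.61 TPM in *timeless*, against 38.9, 30.2 and 25.9 TPM in *ddx11*. *RAD21* was the only call of 10 cohesin genes. *ESCO1*, *RAD54B* and *RAD21* all lay on chromosome 2, where the median was -0.54. The calls made up 12.5%, 3.33% and 10% of these 3 lists, against 5.12% of all genes tested. The first share includes *DDX11*, itself disrupted in one of the lines, so it does not speak for the other members. With the block the lists gave 4, 5 and 2 calls, and 13.9% of all genes tested were called. With 1 library left out each gave at most 1. The calls were lost in the 3 lists alike without *timeless* replicate 3, *ddx11* replicate 1 or *ddx11* replicate 3.

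Cell cycle and survival lists gave 1 or 2 calls each, where 5.12% of all genes tested were called. The called share was 6.90% of cyclins, CDKs and inhibitors and 8.33% of the BCL2 family. It was 5.88% of stress targets and 2.17% of kinesins and centromere proteins. Of 29 cyclins, CDKs and inhibitors, 0 were higher and 2 lower, with 7 at an unadjusted edgeR p under 0.05 and 2 called by DESeq2. Over all 11736 genes tested, 2200 had such a p and DESeq2 called 1182. *CDKN2B*, which encodes the CDK4 inhibitor p15, stood at 2.49, 4.19 and 2.38 TPM in *timeless*, against 9.55, 11.8 and 13.1 TPM in *ddx11*, and *CCNE2*, a cyclin E gene on chromosome 2, at 21.3, 18.3 and 14.0 TPM in *timeless*, against 46.3, 31.2 and 39.3 TPM in *ddx11*. With the block 9 of the 29 were lower, where 13.9% of all genes tested were called. Of the 29, 6 lay on chromosome 2, where the median of all genes was -0.54. The median of the list was -0.30, and -0.21 outside that chromosome. The list gave 0 to 2 with 1 library left out, fewest without *timeless* replicate 3 or *ddx11* replicate 3. *BCL2*, the founding apoptosis inhibitor gene, was the one call of 12 in its family, at 8.43, 8.87 and 11.6 TPM in *timeless*, against 4.91, 2.83 and 2.85 TPM in *ddx11*, against the direction of its chromosome, and the family gave 4 calls with the block. *BTG2*, an antiproliferative target of p53, was the one call of 17 stress targets, at 39.8, 40.0 and 26.2 TPM in *timeless*, against 12.6, 14.3 and 15.6 TPM in *ddx11*, and kept it with each library left out. The stress list gave 2 calls with the block. *BCL2* lost it without *timeless* replicate 3, *ddx11* replicate 2 or *ddx11* replicate 3 (edgeR adjusted p up to 0.087). Among 46 kinesins and centromere proteins, *KIF15*, on chromosome 2, was lower with a log2 fold change of -0.98. With 1 library left out, *KIF15* was called only without *timeless* replicate 1 or 2 (edgeR adjusted p up to 0.075), and with the block its list gave 4 calls.

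Genes of the mitochondrial genome were higher in *timeless*. Of 12 tested, 9 were higher and none lower, with a median log2 fold change of 1.42, and with the block all 12 were higher. Over all genes tested, 5.12% were called, and 13.9% with the block. The number called of the 12 was 2 with 1 TPM asked of both lines and 5 with 5 TPM asked of at least 1 line. *COX1*, a subunit of cytochrome oxidase, stood at 8075, 14790.1 and 13496 TPM in *timeless*, against 5879, 5340.2 and 4361 TPM in *ddx11*, a log2 fold change of 1.39 (SE 0.33, edgeR adjusted p = 0.048). *ND5*, a subunit of complex I, stood at 2031, 4126 and 3439 TPM in *timeless*, against 1306, 1213 and 1029 TPM in *ddx11*, a log2 fold change of 1.60 (SE 0.32, edgeR adjusted p = 0.026). The 3 not called were *ND1*, *ND3* and *COX3*, with edgeR adjusted p of 0.093, 0.29 and 0.057. Together the 12 genes took 4.09%, 8.36% and 6.46% of TPM in *timeless*, against 2.97%, 2.87% and 2.39% in *ddx11*. The shares were 2.38%, 3.68% and 2.90% in *fancj* and 2.59%, 1.91% and 2.56% in wild type, so all 3 *timeless* libraries lay above the 9 others. In each of the 6 fits that left out a library at least 11 of the 12 had an unadjusted edgeR p under 0.05. In the main fit 11 of the 12 did, against 2200 of all 11736 genes tested. After adjustment 10 were called without *timeless* replicate 1, 8 without *timeless* replicate 2 and 0 without *timeless* replicate 3 or any 1 of the *ddx11* libraries. The median of the 12 was 1.16 to 1.69 in those fits.

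**Figure D5:**
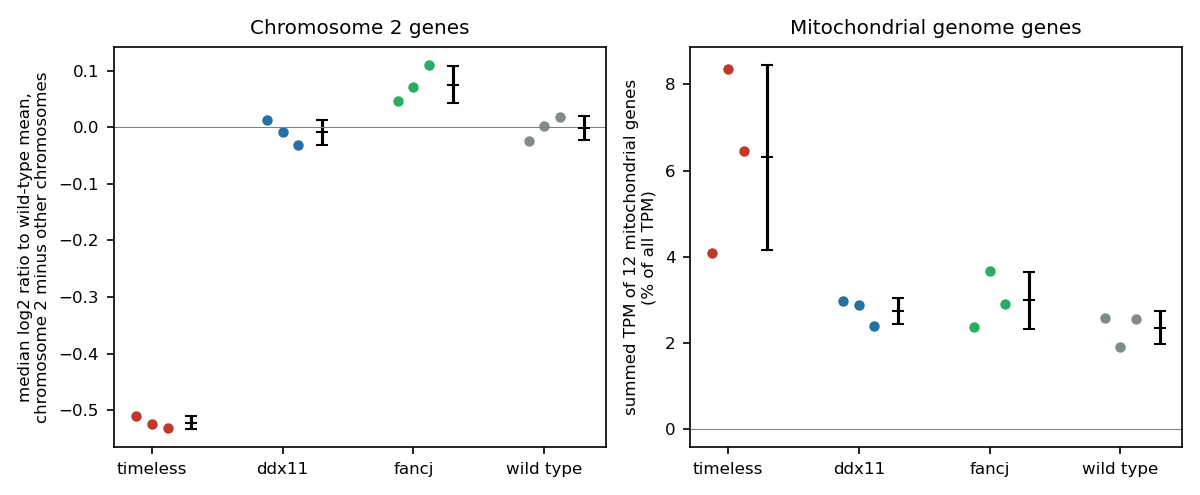
Left, median log2 ratio to the wild-type mean of chromosome 2 genes less that of other mapped genes; right, summed TPM of 12 mitochondrial genome genes as a share of all TPM. Points are libraries and bars the mean ± SD of 3. The *timeless* libraries lie at -0.51 to -0.53 on the left and at 4.09% to 8.36% on the right, apart from the other lines in both.

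Few nuclear genes of the same organelle were called, where 5.12% of all genes tested were. None of 70 mitochondrial ribosomal protein genes was called by edgeR, 6 had an unadjusted p under 0.05, and DESeq2 called 1. Their median was 0.02, near the 0.02 of all genes. The list of 86 respiratory chain subunits also holds *COX1* and *COX3* of the mitochondrial genome. In it *COX1* was the one higher gene and *NDUFV2*, of chromosome 2, the one lower. With the block, which called 13.9% of all genes tested, 4 mitochondrial ribosomal protein genes and 8 respiratory chain genes were called. *COX1* and *COX3* were among the 8. None of 71 cytosolic ribosomal protein genes was called by edgeR, with 0 at an unadjusted p under 0.05 and 0 called by DESeq2. For all 11736 genes tested the last 2 counts were 2200 and 1182. Of 38 proteasome genes, *PSMG4*, a chaperone gene on chromosome 2, was lower, at 105, 110.4 and 95.2 TPM in *timeless*, against 202, 231 and 261 TPM in *ddx11*, and with 1 library left out it was called only without *timeless* replicate 2 or *ddx11* replicate 1 (edgeR adjusted p up to 0.096). With the block 3 proteasome genes were called.

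Heat shock and unfolded protein genes gave more calls with the block than without it, as did all genes tested (13.9% against 5.12%). Without the block, 3.85% of this list and 5.56% of ATF4 targets were called. In the heat shock and unfolded protein list of 26, *SDF2L1*, an endoplasmic reticulum chaperone cofactor gene, was the only call, at 30.9, 25.9 and 28.6 TPM in *timeless*, against 22.3, 17.3 and 16.2 TPM in *ddx11*. Its log2 fold change was 0.76 (SE 0.16, edgeR adjusted p = 0.03), and the list median was 0.25. With the block 8 were higher and 1 lower, and the list gave 0 to 5 with 1 library left out, fewest without *timeless* replicate 1, *timeless* replicate 3, *ddx11* replicate 1, *ddx11* replicate 2 or *ddx11* replicate 3. *HSPA5*, which encodes the chaperone BiP, was singled out after its values were seen. It stood at 818, 402 and 785 TPM in *timeless*, against 457, 252 and 312 TPM in *ddx11*, with a log2 fold change of 1.13 (edgeR adjusted p = 0.076, 0.0047 with the block). Of 18 ATF4 targets, *VLDLR*, a lipoprotein receptor gene, was the only call, at 2.2, 3.03 and 2.27 TPM in *timeless*, against 0.44, 0.69 and 0.62 TPM in *ddx11*, and with the block 3 were called. The median of the ATF4 list was 0.54, and -0.82 without *timeless* replicate 2, so its sign rests on that library.

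Metabolic, chromatin and clock genes gave 1 call in all, where 5.12% of all genes tested were called. *SLC16A3*, a lactate exporter gene, was lower among 29 genes of glycolysis and hypoxia, at 8.19, 10.3 and 7.45 TPM in *timeless*, against 16.3, 32.3 and 23.8 TPM in *ddx11*. By edgeR none was called of 28 genes of sterol and fatty acid synthesis (5 at an unadjusted p under 0.05, 3 by DESeq2). The same held for 22 histone chaperone, polycomb and DNA methylation genes (2 and 1), 19 clock genes (9 and 1) and 10 genes of the MYC network (1 and 1). Over all 11736 genes tested, 2200 had an unadjusted edgeR p under 0.05 and DESeq2 called 1182. With the block these 4 lists gave 3, 2, 5 and 1 calls, where 13.9% of all genes tested were called. *SLC16A3* was called without *timeless* replicate 2 or *ddx11* replicate 1 and in none of the other 4 fits that left out a library, and with the block its list gave 5 calls.

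For most of the 601 called genes the wild-type mean lay nearer to *ddx11* than to *timeless*. This held for 448 of the 601 and the reverse for 153, on the scale of log2(TPM + 1), and no test was made of it. Among the 347 higher genes, wild type was nearer to *ddx11* for 236. Among the 254 lower genes it was nearer to *ddx11* for 212, of which 93 lay on chromosome 2. Taken 1 library at a time, wild-type replicate 1 was nearer to *ddx11* for 517 genes, replicate 2 for 394 and replicate 3 for 421. *PRDM1*, *CCR10* and *ALCAM* were among the genes for which wild-type replicate 1 lay on the *ddx11* side and the other replicates on the *timeless* side. Wild-type replicates also spread for *IL6R* (72.7, 235 and 149 TPM), *TNFRSF13B* (29.2, 99.1 and 83.45 TPM) and *TNFSF10* (58.35, 8.28 and 12.8 TPM). The same held for *IFITM3* (5, 16.5 and 18.4 TPM) and *DBNDD2* (0.85, 16.1 and 11.35 TPM). The *fancj* mean was nearer to *ddx11* for 330 and to *timeless* for 271.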

How the data were processed

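Poly(A) RNA of DT40 cells was sequenced in 12 libraries, of which the 3 *timeless* and 3 *ddx11* libraries were compared. Per the paper, the authors used Bowtie 2 for alignment to GRCg6a, then RSEM on Ensembl 96 genes (versions and use of strand are not given in the sources used here), so reads of overlapping or antisense genes cannot be told apart. The deposited expected count is RSEM's estimate for a gene, not normalized. The authors' TPM is scaled for gene length and to a fixed total, and served for levels and for the limit on low values. The deposited FPKM was not used.

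Expected counts were rounded and fitted in R 4.3.3 with edgeR 4.0.16 (TMM, quasi-likelihood, 6 libraries, Benjamini-Hochberg over 11736 genes). An SE is the log2 fold change divided by the square root of F. The test was tried on simulated data. Chromosomes came from RefSeq's GRCg7b table by symbol (11681 of 24356 genes) or synonym (1159); the files use another build, so no positions are given.

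Same-numbered libraries deviated together (correlations of deviations from the line means 0.33, 0.49 and 0.27, against -0.37 to 0.09 for unlike numbers), so replicate numbers were taken as pairing the libraries. This rests on the data and not on the labels. Deviations within a line sum to 0, so correlations of same and of unlike numbers are not independent of each other. The blocked value stands beside a result where it changes the call or moves a count by over 1.5 times. Genes named are *TIMELESS*, *DDX11*, *TIPIN*, *CLSPN*, *WDHD1* and *BRIP1*, the 12 highest and 12 lowest named genes called without overlap and with 10 TPM or more in a line, up to 6 called genes of each list by p, the 6 most abundant called on the chromosome with most lower genes, and 2 unnamed genes a direction. Some of these genes, and 1 gene list, are not reported here. Members and lists were chosen with earlier results of these data known. With 3 libraries a line, an exact permutation test of 1 gene cannot go below p = 0.1. Counting intervals cover counting error only. Alternatives were other normalization, tests, filters, thresholds, the block and leaving out each library.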

Additional observations from a re-analysis of the deposited data

How the results depend on the processing

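The 601 called genes (347 higher, 254 lower) became 1182 (632 and 550) by DESeq2's Wald test, 1629 (803 and 826) with the replicate block, 257 (139 and 118) with 1 TPM asked of both lines, 356 (188 and 168) with 5 TPM asked of at least 1 line and 182 (125 and 57) at an adjusted p under 0.01. Asking for a log2 fold change of at least 1 in size left 168 lower genes. With each library left out in turn the calls ran between 189 and 676, the higher between 132 and 357 and the lower between 57 and 319. Fewer samples were then tested. DESeq2 size factors, filterByExpr, no TPM limit, all 12 libraries in 1 fit and TMM factors from the genes outside chromosome 2 kept each of the 3 counts within 1.5 times. Chromosome 2's median log2 fold change of -0.54 was -0.55 without a TPM limit, -0.55 with the replicate block, -0.57 with TMM factors from the other chromosomes and -0.50 to -0.56 with 1 library left out. Of the 97 called genes that the naming rule picked, none reversed in any alternative, 97 kept the call with the block and 41 kept it in every leave-one-out fit that tested them (*KCNK1* and *CACNA2D1* were not tested in 1 such fit each), with 55 lost without *ddx11* replicate 3 and 7 without *timeless* replicate 2. The fit of all 12 libraries lost 33 of the 97. Of those still tested, 1 TPM asked of both lines lost 18, 5 TPM asked of at least 1 line 11, TMM factors from outside chromosome 2 lost 2 and no TPM limit 1. Besides the counts given, the block changed the call of *TIMELESS* and of no other gene that the naming rule picked. The number of called genes for which wild type was nearer to *ddx11* was 444 with log2(TPM + 0.1) and 405 to 476 without 1 wild-type library, against 448. The search for G-quadruplex motifs in promoters was not run, since no promoter sequence was used here. Depth limited the genes with few counts in one line, whose folds are bounds or carry wide intervals.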

Other observations

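Called genes that sit next to each other in the gene order of the GRCg7b table usually shared a direction. Outside chromosome 2 and the mitochondrial genome there were 13 such pairs among the called genes with a name, of which 8 were higher and 4 lower in *timeless* for both members, and 1 was split. No test was made of this, and the pairs were picked out after their values were seen. *NKX6-3* lay beside *ANK1*, which encodes a membrane skeleton protein, with log2 fold changes of 5.74 and 2.50. *CCR10* and *CNTNAP1* had 3.51 and 1.80. The lower pairs included *AKR1B1L* and *AKR1E2*, with -3.85 and -8.04, and *STMN1* and *PAQR7*, with -1.07 and -3.23. *CHST3* and *AIFM2* were the split pair, with 1.18 and -2.29.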
